A study of Mus musculus with 2 samples.

Results

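Hair matrix progenitors of postnatal mouse skin were taken as 94 cells of 18186 barcodes, chosen by a rule on their UMIs (unique molecular identifiers, each standing for a captured RNA molecule). The data were 2 droplet libraries of dorsal skin from mice on postnatal day 3. The control library had the genotype Wildtype, the induced library carries the genotype label miR-200b induced, and the treatment of each is labelled Dox (doxycycline, the drug that switches on many inducible transgenes). Epidermis and dermis had been dissociated separately and mixed at 30% and 70%. The labels name no promoter or driver line for the induction, and neither the number nor the sex of the animals behind a library. Each genotype is therefore 1 library, no test between genotypes was possible, and each difference below describes these libraries.

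A member had at least 1000 UMIs, at least 500 detected genes and under 15% mitochondrial UMIs. Its keratin genes summed to at least 30 UMIs per 10000. Keratins of the inner root sheath and hair shaft (Krt25, Krt27, Krt28, Krt71 and Krt35) stayed under 20 per 10000, Krt75 of the companion layer under 5, and the collagens Col1a1 and Col3a1 together under 20. A further keratin of that shaft limit was not used here. Shh and Msx2 together reached at least 1 per 10000, and at least 3 of the 6 genes Shh, Ptch1, Msx2, Hoxc13, Dlx3 and Lef1 were detected. The control library gave 49 members and the induced library 45. These were 1.15% (0.854 to 1.52, exact Clopper-Pearson 95% interval) of the 4249 keratin cells of the control library and 0.992% (0.724 to 1.33) of the 4538 of the induced library. The log2 ratio of the shares was -0.22 (-0.83 to 0.40), so no difference in share was detectable at this number of cells. All intervals here cover counting error only.

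The hair matrix is the proliferating epithelium at the base of the follicle that surrounds the dermal papilla. Its cells divide, then move upward and differentiate into the inner root sheath and the hair shaft. Shh is secreted by part of the matrix and acts through its receptor Ptch1 on neighbouring epithelium and dermis, while Wnt and BMP signals and the factors Lef1, Msx2, Hoxc13 and Dlx3 drive shaft differentiation. MicroRNAs of the miR-200 family pair through a short seed with sites in the 3′ UTRs of their target RNAs.

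The induced microRNA and its cluster neighbours are shown because the seed (bases 2 to 8, in capitals) sets which 3′ UTRs can pair. Sequences are from RefSeq on GRCm38.p6, and all 3 lie on the minus strand of chromosome 4. The seed of miR-200b is shared by miR-429 and not by miR-200a.
mmu-miR-200b-3p (chr4:156055685-156055706): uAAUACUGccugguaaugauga
mmu-miR-429-3p (chr4:156053916-156053937): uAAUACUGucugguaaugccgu
mmu-miR-200a-3p (chr4:156054911-156054932): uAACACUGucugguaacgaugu

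Sites for the miR-200b seed in genes described below are shown in the sense of the RNA, with the 7-base match CAGTATT in capitals. Positions are on GRCm38 and lie in the 3′ UTRs of GENCODE release vM21. Cux1 held 2 sites, and the other genes held 1 each. In Tuba1b, Rrm2 and Trps1 the match was followed by an A, which makes the 8-base match.
Cux1 site 1 (chr5:136272883-136272908, minus strand): gggatagactgccggCAGTATTgggt
Cux1 site 2 (chr5:136266913-136266938, minus strand): tgtgttacattttagCAGTATTtact
Fn1 (chr1:71585670-71585695, minus strand): tttatcaatttttccCAGTATTttta
Wif1 (chr10:121100285-121100310, plus strand): gcagcgtttaagctaCAGTATTtcca
Tuba1b (chr15:98931534-98931559, minus strand): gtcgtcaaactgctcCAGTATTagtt
Rrm2 (chr12:24713722-24713747, plus strand): tttttttttaatgctCAGTATTatct
Trps1 (chr15:50660286-50660311, minus strand): actatcatatgacagCAGTATTaggc

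Members were deeply sampled. Their median was 20682 UMIs in the control library (7280 to 111762) and 18582 in the induced library (4354 to 60664), and they held 1280020 and 911539 UMIs in all. Between the libraries 74 barcodes were shared, none of them a member. A median of 5.27% and 6.67% of member UMIs were mitochondrial. Scrublet, a doublet caller, placed 3 members of each library among the 7% of barcodes with the highest scores.

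The limit on keratins cut through a continuum. The member nearest to it held 31.6 keratin UMIs per 10000 for control and 33.2 for induced, and the nearest excluded cells held 29.9 and 29.8. That limit alone excluded 19 control and 11 induced cells. Of these, 11 and 8 had a Shh UMI, all had a UMI of Krt14 or Krt5, and 3 and 1 reached 10 UMIs of the mesenchymal filament gene Vim per 10000. Members held 51.8% of all Shh UMIs of the control library and 41.8% of those of the induced library. Cells under the keratin limit held a further 30.9% and 9.63%, and cells past the limit on shaft and sheath keratins 7.17% and 14.2%. Barcodes that failed the cell filter held 5.02% and 26.5%, so the filter left out more Shh UMIs in the induced library. The part of this in the share of members was not tested.

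The 6 genes of the rule are a description of the members, not a finding. Shh stood at 282 CPM (counts scaled to the summed UMIs of all members of a library, where 1 UMI is worth 0.781 CPM in control and 1.10 CPM in induced members) in 34 of 49 control members and at 309 CPM in 40 of 45 induced members. After thinning each cell to 5000 UMIs, 53.1% and 58.1% of members had a Shh UMI, against 0.281% and 0.56% of the other keratin cells, whose median depths were 16073.5 and 20584 UMIs. The values for the other 5, control first, were 239 and 172 CPM for the receptor Ptch1, and 69.5 and 133 CPM for Msx2. Hoxc13 stood at 96.9 and 89.96 CPM, Dlx3 at 46.9 and 87.8 CPM, and Lef1 at 116 and 124 CPM. Exactly 3 of the 6 genes were detected in 11 control and 14 induced members, and all 6 in 7 and 11. Shh and Msx2 were both detected in 22 control and 28 induced members, Shh alone in 12 and 12, and Msx2 alone in 15 and 5.

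Keratins entered the rule, so their levels are a description. All members had UMIs of the basal keratins Krt14 and Krt5, and their median keratin level was 57.1 and 50.5 per 10000, against 201 and 223 in the other keratin cells. Further matrix genes outside the rule were read for the label. Wnt10b, Edar, Dlx1, Dlx2, Msx1, Cdh3 and Bambi stood higher in members than in other keratin cells in both libraries. Foxn1 stood lower, at 2.34 and 4.39 CPM against 3.05 and 11.2 CPM, as did Wnt10a, at 49.2 and 74.6 CPM against 54.8 and 84.99 CPM. Foxi3 had 2 UMIs in control and 0 in induced members. Marker lists of other cell types were then read for the label. Those of other epithelial cells were not at 0. The 10 outer root sheath markers, with Lhx2, Sox9, Lgr5 and Ptn among them, had a median of 20.2 and 25.2 per 10000 in members. This was above the 10.4 and 5.64 of the other keratin cells and goes against a pure matrix label. The list summed to 1986 and 2506 CPM in members, of which Ptn gave 850 and 1817 CPM and Lhx2 694 and 373 CPM. Lgr5 stood at 35.2 and 6.58 CPM in members against 31.2 and 19.3 CPM in other keratin cells. Fgf18 was at 0 in members of both libraries. The epidermal basal list had 9.19 and 23.7 per 10000 in members against 17.2 and 37.5, and the suprabasal list 27.7 and 21.1 against 71.3 and 81.2. The companion layer list had 20.9 and 17.0 against 21.9 and 28.3. The inner root sheath list had 1.81 in control members against 2.22, and 3.11 in induced members against 1.92. For the hair shaft list the medians were 0 and 0.465 in members against 0 and 0. The 8 endothelial markers summed to 2.34 and 0 CPM, the 6 Merkel cell markers to 0 and 4.39 CPM and the 9 immune markers to 14.8 and 36.2 CPM. The 10 melanocyte markers summed to 28.1 CPM in control and 134 CPM in induced members, with Tyr, Sox10 and Slc45a2 at 0 in both. The 10 dermal papilla markers summed to 82.0 and 130 CPM, of which Wif1, described below, gave 76.6 and 122 CPM, and Corin, Fgf10, Sox18, Alx4 and Enpp2 were at 0 in both. The fibroblast list summed to 565 and 832 CPM, most of it from Dcn, described below, and the Schwann cell list to 31.2 and 83.4 CPM. Some members went against the label. Keratins of at least 100 per 10000 marked 12 control and 4 induced members. Krt1 and Krt10, keratins of the suprabasal epidermis, reached 50 per 10000 together in 1 control and 2 induced members. A single control member held Krt33a, a hair shaft keratin, at 254 per 10000.

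Ranked by the smaller of the ratios of the 2 libraries and leaving out the rule genes, Dcn, Basp1, Nrp2, Bach2 and Cux1 stood highest in members against the other keratin cells. With 20 CPM added to both values, 53 of 2896 genes (1.83%) were at least 2-fold higher in members than in the other keratin cells of the same library in both libraries, and 97 (3.35%) were at least 2-fold lower. Only genes averaging 50 CPM or more entered. The rule chose the cells, so these values describe them and were not tested.

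Among the 15 genes that stood highest were 3 transcription regulators. Cux1, a homeodomain factor of the follicle, stood at 434 CPM in control members and 57.4 CPM in other keratin cells, and at 259 and 41.1 CPM in the induced library. Lhx2, a LIM homeodomain factor of hair placodes and stem cells, stood at 694 and 148 CPM for control and at 373 and 90.9 CPM for induced. Bach2 stood at 170 and 17.3 CPM, and at 135 and 12.7 CPM. The shaft and inner root sheath cells, 21 in the control and 32 in the induced library, had 358 and 560 CPM of Cux1 and 224 and 71.3 CPM of Bach2, and less Lhx2 than members (76.6 and 39.2 CPM).

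Of the remaining genes, Bmp4, which encodes a BMP ligand, had 128 UMIs in control members and 111 in induced members (122 CPM), against 7.72 and 5.17 CPM in other keratin cells. Wif1, a secreted Wnt inhibitor also listed as a dermal papilla marker, stood at 76.6 and 1.24 CPM for control and at 122 and 5.65 CPM for induced. Nrp2, a co-receptor for semaphorins and VEGF, stood at 309 and 45.0 CPM, and at 297 and 25.4 CPM. The shaft and sheath cells held Nrp2 at 355 and 511 CPM and Bmp4 at 90.8 and 151 CPM, so these genes did not set members apart from them. The cyclin gene Ccnd1 stood at 516 and 147 CPM, and at 346 and 78.4 CPM. Of the 8 genes lowest in members, Krtdap, Calm4, Ly6d, Ly6g6c and Sprr1a belong to differentiating epidermis. Krtdap stood at 352 CPM against 1990 CPM for control and at 191 against 4018 CPM for induced, and 88.4% of the control UMIs came from 1 member.

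**Figure D1:**
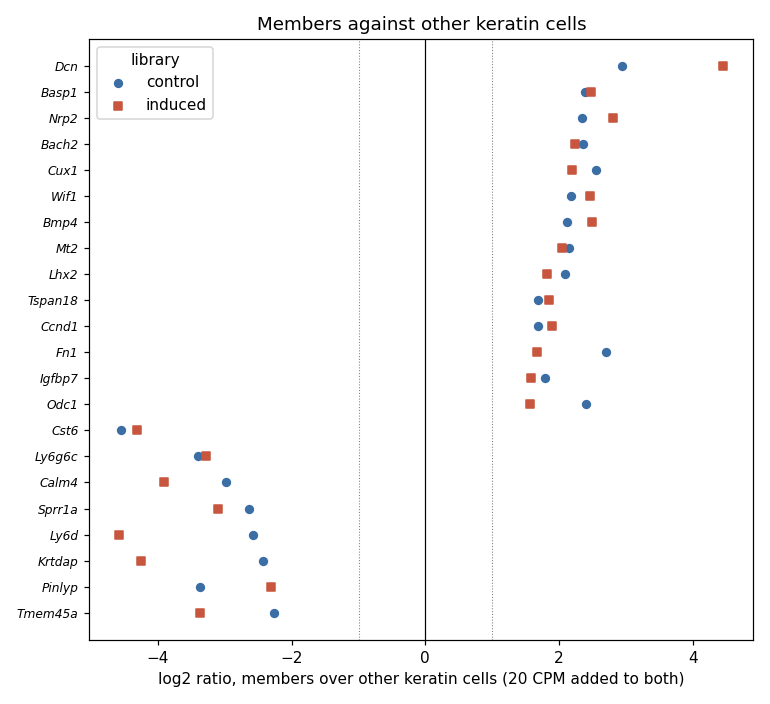
Log2 ratio of CPM in members over the other keratin cells of the same library (x axis, 20 CPM added to both) for 14 of the 15 genes highest and the 8 genes lowest in members (y axis), with control as circles and induced as squares. All 22 genes drawn lie past 2-fold (dotted lines) on the same side in both libraries, and Dcn lies farthest to the right in both.

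Leaving out the rule genes, the largest ratio was that of Dcn, which encodes the small proteoglycan decorin, a product of fibroblasts. It stood at 502 CPM in control members, with a UMI in 26 of 49, and at 792 CPM in induced members, with a UMI in 33 of 45. The other keratin cells had 48.0 and 16.9 CPM. Dcn reached at least 10 per 10000 in 7 control and 15 induced members, and 7 and 14 of these had a Shh UMI. The other fibroblast genes were low. Col1a2 stood at 21.9 and 5.49 CPM in members, Lum at 5.47 and 16.5 CPM, Vim at 7.03 and 21.9 CPM and Pdgfra at 0 and 1.10 CPM. In the cells under the keratin limit, which include the fibroblasts, Dcn stood at 2347 and 1315 CPM and Col1a2 at 7451 and 2526 CPM. Col1a2 UMIs outnumbered Dcn UMIs there and were outnumbered by them in members. The rule held Col1a1 and Col3a1 together under 20 per 10000 in members, a limit that alone excluded 0 cells. The cells under the keratin limit also include other cell types, so this contrast is a description only. With 5000 UMIs drawn from each cell, a Dcn UMI was found in 38.8% of control and 60.5% of induced members, against 9.31% and 4.17% of the other keratin cells. The part of fibroblast RNA in the Dcn values was not tested.

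Members with Shh were set against members without it, a split by a gene of the rule that is given without a test. All 28 control members with a UMI of the Wnt ligand gene Wnt10b had a Shh UMI, and 31 of the 33 such induced members did. Wnt10b stood at 152 CPM in the 34 control members with Shh and had 0 UMIs in the 15 without. In the induced library it stood at 89.3 CPM in the 40 members with Shh and 40.5 CPM in the 5 without, the latter from 2 UMIs. Members without Shh were shallower, with medians of 13585 UMIs against 23696.5 among control members and 9640 against 21142.5 among induced members. At 5000 UMIs per cell, a Wnt10b UMI was found in 10 of 34 control members with Shh and 0 of 15 without. Among induced members it was found in 18 of 38 with Shh (47.4%) and 2 of 5 without (40%). The split itself was made at full depth. Wnt10b was not limited to members, which held 12.3% and 2.65% of its UMIs in the 2 libraries. Thinned to 5000 UMIs, 5.15% and 12.1% of the other keratin cells had a Wnt10b UMI, against 0.281% and 0.56% with a Shh UMI, as had 5 of 16 and 5 of 28 shaft and sheath cells and 0 of 22 and 0 of 33 companion layer cells. The overlap of Wnt10b with Shh therefore describes cells chosen partly on Shh. The 10 control and 3 induced Wnt10b cells that only the keratin limit excluded all had a Shh UMI.

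**Figure D2:**
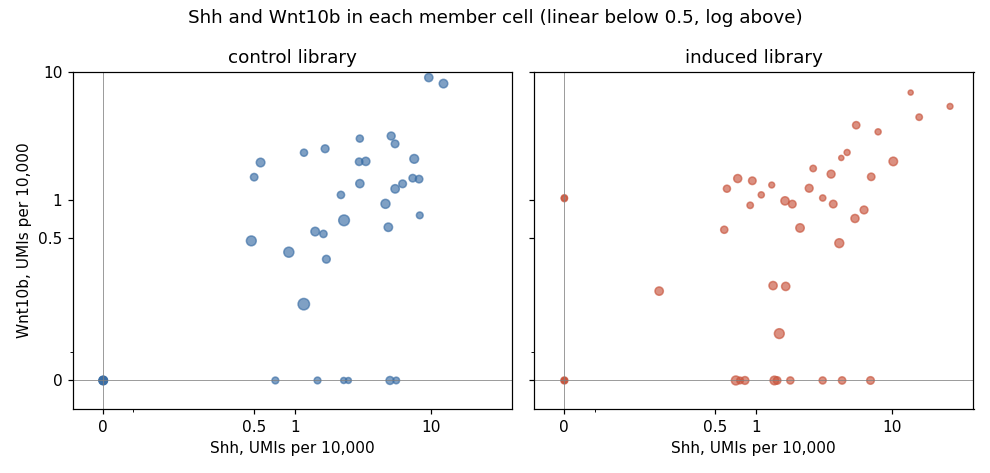
UMIs per 10000 of Shh (x axis) and Wnt10b (y axis) in each member of the control (left) and induced (right) library, with larger points for deeper cells and axes linear below 0.5 and logarithmic above. No control cell and 2 induced cells, drawn on top of each other, have Wnt10b without Shh.

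Of 2968 genes, 35 (1.18%) were at least 2-fold higher in members with Shh in both libraries and 8 (0.27%) at least 2-fold lower. The 35 include Shh itself, which the split fixed. From the gene lists the higher ones included the Wnt response gene Sp5, Wif1, Sox21, Fn1 and Dcn. Sp5 stood at 80.3 CPM with Shh and 4.06 CPM without it among control members, and at 44.1 and 0 CPM among induced members. The hedgehog response gene Gli1 did not follow this split, with 58.0 and 56.8 CPM for control and 20.9 and 20.3 CPM for induced. Sostdc1, a secreted inhibitor of BMP and Wnt signals, stood at 49.3 CPM with Shh and 361 CPM without it in the control library, and at 97.4 and 182 CPM in the induced library. The values without Shh in the induced library rest on 5 cells.

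**Figure D3:**
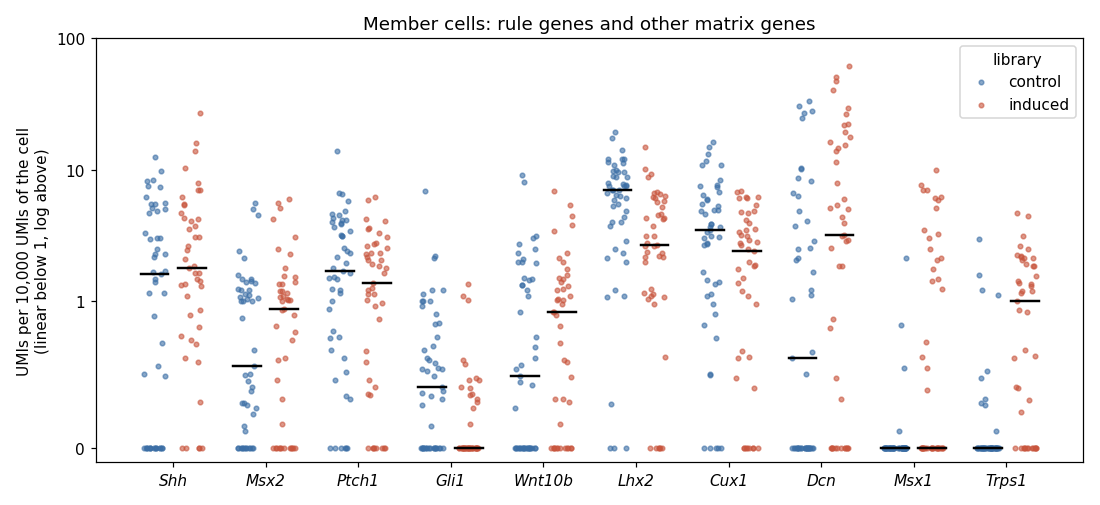
UMIs per 10000 UMIs (y axis, linear below 1 and logarithmic above) of 10 genes (x axis) in each of the 49 control and 45 induced members, with bars at the medians. The Msx1 points above 0 are 4 in the control and 22 in the induced library, and those of Trps1 10 and 32.

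The induction was read from Gm13648, the annotated transcript that spans the miR-200b cluster (ENSMUSG00000086549, chr4:156052715-156059802, minus strand). It had 3 UMIs in 3 control members (2.34 CPM) and 476 UMIs in 40 of 45 induced members (522 CPM), a log2 ratio of 7.80 (6.24 to 10.08, exact conditional binomial interval). The other keratin cells had 2.32 and 527 CPM. The mature microRNA has no poly(A) tail and was not read here.

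Across genes, members of the induced library had fewer UMIs of DNA replication genes and of Tuba1b, and more of a small set of genes that includes the homeobox gene Msx1. Of 2968 genes averaging 50 CPM or more over both libraries, 60 (2.02%) were at least 2-fold higher in induced members and 110 (3.71%) at least 2-fold lower, with 20 CPM added to both values. The median gene was at -0.13 on the log2 scale, and centred on that median the counts were 89 higher and 66 lower. In the other keratin cells 30 of the same genes (1.01%) were 2-fold higher and 59 (1.99%) lower. Of the genes past 2-fold in members, 15 were also 2-fold higher and 31 also 2-fold lower there. Single cells carried part of the list: 8 of the 60 genes took at least 50% of their induced UMIs from 1 member, and 12 of the 110 took at least 50% of their control UMIs from 1 member.

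Msx1 (ENSMUSG00000048450, chr5:37820485-37824583), a homeobox gene active with Msx2 in the matrix, had 7 UMIs in 4 control members and 153 UMIs in 22 induced members. These are 5.47 and 168 CPM, a log2 ratio of 4.94 (3.86 to 6.28). With each cell thinned to 5000 UMIs, 2.04% (0.0517 to 10.9) of 49 control members and 41.9% (27.0 to 57.9) of 43 induced members had an Msx1 UMI. The shares in other keratin cells were 0.816% and 1.32%. The cells of the shaft and inner root sheath had 130.5 and 234 CPM, so control shaft and sheath cells held Msx1 while few control members did. Of the 19 control and 11 induced cells excluded by the keratin limit alone, 6 and 3 had an Msx1 UMI. With these cells added, the log2 difference with 20 CPM added was 2.56, against 2.88 without them.

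Trps1 (ENSMUSG00000038679, chr15:50654752-50890463), a GATA-type repressor needed for hair growth, stood at 15.6 CPM in 10 control members and at 114 CPM in 32 induced members, a log2 ratio of 2.87 (2.17 to 3.64). Its 3′ UTR holds the 8-base miR-200b match printed above. Shaft and sheath cells had 218.5 and 150 CPM, and other keratin cells 21.9 and 22.2 CPM. With the 19 control and 11 induced cells that only the keratin limit excluded, the difference was 1.24 with 20 CPM added, against 1.91 without them. Among members without Shh, 5 of them in the induced library, the Trps1 difference was 0.86 and so under 2-fold. Both Msx1 and Trps1 were detected in 2 control and 19 induced members.

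The rest of the 12 genes highest in induced members were of 2 kinds. The first were spread over many cells. Sat1, which encodes the polyamine acetyltransferase SSAT, stood at 96.9 CPM in 29 control members and 835 CPM in 41 induced members, and at 147 and 174 CPM in other keratin cells. Cldn10, a tight junction claudin, stood at 16.4 CPM in 6 control members and 132 CPM in 25 induced members. Prnp, the prion protein gene, stood at 47.7 and 255 CPM. Cldn10 and Prnp reached the tested level only through the induced library, so their direction was fixed by that filter. The others, Spink5, Lor, Krt77, Hrnr, Sbsn, Flg and Cdsn, are genes of the epidermal barrier, and 76.6% to 98.7% of their induced UMIs came from 1 member. Of these barrier genes, all but Sbsn reached the tested level only through the induced library. Without members of at least 100 keratin UMIs per 10000, the Spink5 difference went from 3.83 to 0.69.

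Of the 12 genes lowest in induced members, Tuba1b, Nme1 and Prdx2 had UMIs in most members of both libraries with no more than 12.5% of them from 1 cell. Tuba1b (ENSMUSG00000023004), an alpha-tubulin gene with the 8-base site printed above, stood at 1355 CPM with a UMI in 49 of 49 control members and at 246 CPM in 37 of 45 induced members. The log2 ratio was -2.46 (-2.67 to -2.26). Nme1, a nucleoside diphosphate kinase, stood at 641 and 109 CPM, and the peroxiredoxin gene Prdx2 at 986 and 236 CPM. The other keratin cells showed the same direction, with 707 and 176 CPM for Tuba1b, 318 and 119 CPM for Nme1 and 704 and 179 CPM for Prdx2. Krt15, a keratin of basal and outer root sheath cells, stood at 508 CPM in 39 control members and 98.7 CPM in 21 induced members, with 28.6% and 27.8% of the UMIs from 1 cell, and at 3830 and 501 CPM in other keratin cells. Its difference of -2.15 went to 0.18 when the rule was applied at 5000 UMIs per cell. The remaining 8 included Krt33a, Krt31, Krt87, S100a3 and Psors1c2, each with at least 99.3% of its control UMIs from 1 member. Stfa3 and Cstdc5 took 96.3% and 95.9% of theirs from 1 member, and Krt79 took 38.4%. Krt33a, Krt31, Krt87, S100a3, Psors1c2 and Krt79 reached the tested level only through the control library, so their direction was fixed by that filter.

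**Figure D4:**
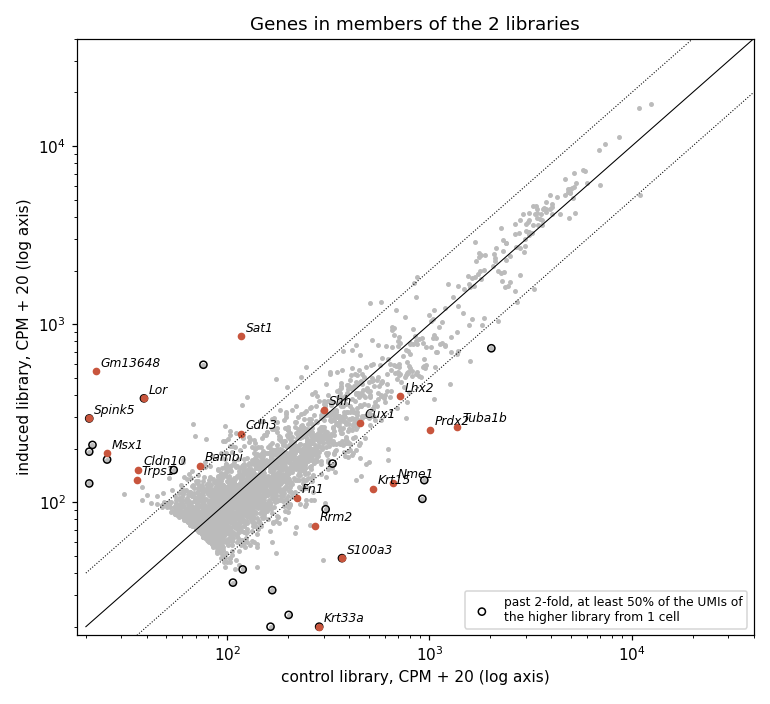
CPM plus 20 in control members (x axis) and induced members (y axis), both axes logarithmic, for the 2968 genes averaging 50 CPM or more. The solid line marks equal values and the dotted lines 2-fold, named genes are in red, and open circles mark genes past 2-fold with at least 50% of the UMIs of the higher library from 1 cell.

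No tested hedgehog gene was past 2-fold in either direction, against 2.02% and 3.71% of all genes. Of 14 genes listed, 4 reached the level tested, and these include the rule genes Shh and Ptch1, whose levels the choice of cells shaped. The signal transducer Smo stood at 97.7 CPM in control and 84.5 CPM in induced members. Below the tested level, Gli1 stood at 57.8 CPM in 31 control members and at 20.8 CPM in 16 induced members, a log2 ratio of -1.47 (-2.28 to -0.73).

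Of 47 Wnt genes, 14 were tested besides the rule gene Lef1. Of these 1 (7.14%) was at least 2-fold higher, against 2.02% of all genes, and none lower, against 3.71%, with a median of 0.08. The receptor gene Fzd1 stood at 28.9 CPM in 20 control and 80.1 CPM in 30 induced members, and reached the tested level only through the induced library, where it is high. Its difference of 1.03 was -0.11 in the members without Shh, and under 2-fold with no keratin minimum (0.93) and with cells weighted equally (0.75). Among the ligands Wnt4 stood at 150 and 277 CPM, Wnt6 at 127 and 105 CPM and Wnt10b at 123 and 86.7 CPM. Below the tested level, the stem cell receptor genes Lgr5 and Lgr6 stood at 35.2 and 6.58 CPM and at 68.8 and 20.8 CPM. The Wnt feedback genes Nkd1 and Axin2 stood at 58.6 and 24.1 CPM and at 19.5 and 40.6 CPM, and the ligand gene Wnt5a at 19.5 and 35.1 CPM.

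Of 24 BMP genes, 11 were tested, 1 (9.09%) was at least 2-fold higher, against 2.02% of all genes, and none lower, against 3.71%, with a median of 0.18. The gene past 2-fold was Bambi, a decoy receptor, at 53.1 CPM in 22 control and 140 CPM in 19 induced members. With shaft and sheath keratins held under 10 per 10000, its difference went from 1.13 to 0.55, leaving 0 BMP genes past 2-fold, and it was 0.98 with no keratin minimum. With keratins under 100 per 10000 the median of the 11 tested BMP genes was 0.29, against -0.13 for all genes at that setting. The ligand genes Bmp2 and Bmp4 had 223 and 100 UMIs and 128 and 111 UMIs in control and induced members. The inhibitor Fst stood at 147 and 274 CPM, and the response gene Id3 at 395 and 278 CPM. Of 19 Notch genes, 4 were tested and none was past 2-fold in either direction, and Jag2 stood at 64.1 and 87.8 CPM.

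Of 36 matrix transcription factors, 14 were tested besides 4 rule genes. The 2 past 2-fold (14.3%, against 2.02% of all genes) were Msx1 and Trps1, which reached the tested level only through the induced library, so their count says nothing further. The median of the 14 was 0.18, against -0.13 for all genes. Cux1, with 2 sites for miR-200b, stood at 434 CPM in control and 259 CPM in induced members, a log2 ratio of -0.74 (-0.97 to -0.52). Lhx2 stood at 694 and 373 CPM, a log2 ratio of -0.90 (-1.08 to -0.71). Sox4 stood at 774 and 558 CPM and Foxp1 at 78.1 and 133 CPM. Sox9, named in the series title, stood at 123 CPM in 27 control members and 183 CPM in 21 induced members, and 40.7% of its induced UMIs came from 1 member. Its difference of 0.51 was -0.38 when the rule was applied at 5000 UMIs per cell.

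Genes of DNA replication stood lower in induced members, 15 of the 16 tested being below 0, against 61.2% of all genes with an annotated 3′ UTR. Of 23 listed, 16 were tested, 6 were at least 2-fold lower and none higher, against 3.71% and 2.02% of all genes. The median of the 16 was -0.73, against -0.13 for all genes. The ribonucleotide reductase subunit Rrm2, with the 8-base site printed above, stood at 253 CPM in 39 control and 53.8 CPM in 18 induced members, a log2 ratio of -2.24 (-2.70 to -1.80). The replicative helicase subunit Mcm4, which reached the tested level only through the control library, stood at 120 and 36.2 CPM. The other 5 were above 50 CPM in both, among them the clamp Pcna at 308 and 135 CPM and thymidylate synthase Tyms at 226 and 82.3 CPM. Of 16 genes of G2 and mitosis, 12 were tested and 2 were at least 2-fold lower, Top2a (377 and 173 CPM) and Ccnb1 (128 and 35 UMIs), the latter reaching the tested level only through the control library. The mitotic motor and kinetochore genes Cenpe and Cenpf differed little, at 99.2 and 98.7 CPM and at 141 and 151 CPM. The G2 and mitosis count was 0 of 12 with the stricter cell filter, with at least 4 of the 6 markers or with the lower limit on shaft keratins, and 0 of 11 among members with Shh. It was 6 of 13 with the rule applied at 5000 UMIs per cell, where 4.71% of all genes were 2-fold lower. Among members without Shh, 5 of them in the induced library, 17.5% of all genes were 2-fold lower, as were 10 of 13 of these genes and 13 of 15 replication genes.

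A cycling member was one with at least 2 UMIs of the 16 G2 and mitosis genes after thinning to 5000 UMIs. They were 71.4% (56.7 to 83.4) of 49 control members and 53.5% (37.7 to 68.8) of 43 induced members, and the intervals overlapped. In other keratin cells the shares were 30.3% (28.9 to 31.8) and 19.7% (18.5 to 20.97). Without thinning, members gave 85.7% and 71.1%. In both libraries the share was higher in members than in the other keratin cells.

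**Figure D5:**
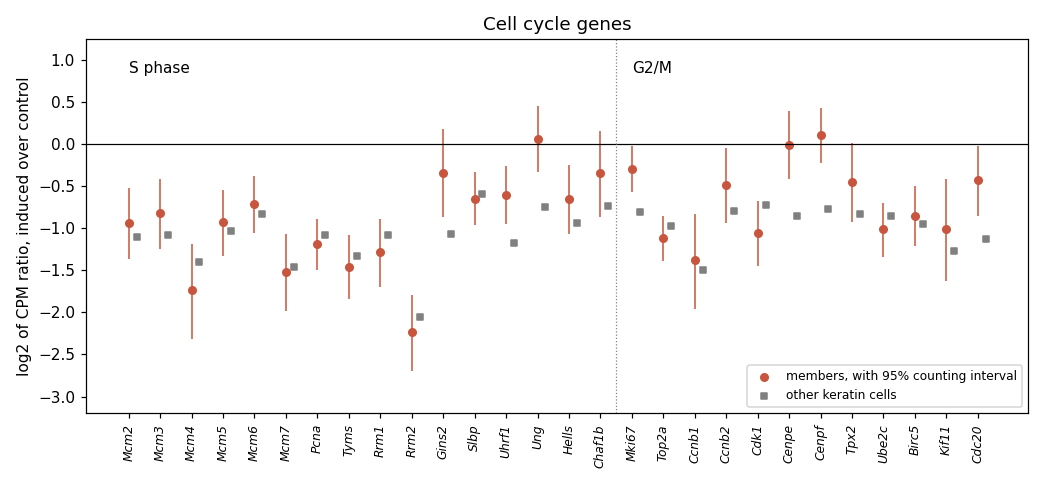
Log2 ratio of CPM, induced over control (y axis), for the 16 tested DNA replication genes and the 12 tested genes of G2 and mitosis (x axis), in members (circles, with 95% counting intervals) and in other keratin cells (squares). Ung, Cenpf and Cenpe lie near 0 in members, and the other genes lie below 0 in both kinds of cell.

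Genes with a miR-200b match in the sense strand of the 3′ UTR had a lower median difference in induced members than all genes. Of 2924 tested genes with an annotated 3′ UTR, 419 held the 7-base match. Their median log2 difference was -0.30, against -0.13 for all 2924. At least 2-fold lower were 38 of them (9.07%), against 3.69% of all, and 5 were at least 2-fold higher (1.19%), against 1.92%. The 91 genes with the 8-base match had a median of -0.34, and 12 of them (13.2%) were 2-fold lower. In the other keratin cells the 7-base genes had a median of -0.27, against -0.13 for all. The 596 genes with a miR-200a match had a median of -0.24 in members. Base composition and UTR length were not matched between these groups.

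Of 16 established miR-200b targets listed, 5 were tested, and 4 of these were below 0 in induced members, as were 61.2% of all genes with an annotated 3′ UTR. Fn1, which encodes fibronectin, was the one past 2-fold (1 of 5, against 3.71% of all genes), at 201 CPM in 33 control and 85.6 CPM in 26 induced members, a log2 ratio of -1.23, and it was 13.9 and 13.2 CPM in other keratin cells. Rhoa, a small GTPase of the cytoskeleton, stood at 346 and 239 CPM, Suz12, a Polycomb subunit, at 134 and 89.96 CPM, and Qk, a splicing regulator, at 126 and 79.0 CPM. Foxp1 lay above 0. The difference of Fn1, -1.06 with 20 CPM added, was under 2-fold with doublets removed (-0.96), with the lower limit on shaft keratins (-0.97), centred on the median gene (-0.94) and with cells weighted equally (-0.76). The best known targets, Zeb1 and Zeb2, had 0 UMIs in members of both libraries, which allows up to 2.34 CPM in control and 3.29 CPM in induced members (3 counts).

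Of 20 adhesion genes, 14 were tested and 1, Cdh3, was at least 2-fold higher (7.14%, against 2.02% of all genes). Cdh3 encodes P-cadherin, the cadherin of the matrix, and stood at 96.9 CPM in 34 control and 222 CPM in 42 induced members, and at 46.2 and 82.1 CPM in other keratin cells. Cdh1, for E-cadherin, stood at 56.3 and 101 CPM, and Epcam at 377 and 438 CPM. The difference of Cdh3, 1.05, lay between 0.90 and 0.996 and so under 2-fold in 5 settings: among members with Shh, with at least 4 markers, with the lower limit on shaft keratins, with keratins under 100 per 10000 and with no keratin minimum. Of 18 tested stress response genes 1 (5.56%, against 2.02% of all) was past 2-fold, the heat shock gene Hspa1a, at 818 and 1684 CPM, against 1355 and 1045 CPM in other keratin cells. Its difference of 1.02 went to -0.43 among members without Shh. With the rule applied at 5000 UMIs per cell, the median of the stress genes was 0.75, against -0.14 for all genes at that setting. In the main setting it was 0.14, against -0.13. The stress count was 0 of 18 with the stricter cell filter, with doublets removed or with the lower limit on shaft keratins.

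The 5 tested genes of shaft and inner root sheath products were at least 2-fold lower in induced members, against 3.71% of all genes. For Krt33a, Krt31 and S100a3 the tested level was reached only through the control library, so their direction was fixed by that filter. Krt33a, Krt31, S100a3 and Mt4 took most of their control UMIs from 1 member (64.6% for Mt4). Lap3, a leucine aminopeptidase gene, was spread over 45 control and 38 induced members, at 416 and 178 CPM. Its difference of -1.14 was under 2-fold among members with Shh (-0.77) and with no keratin minimum (-0.95). Among members with keratins under 100 per 10000, 2 of these genes reached the tested level and 1 was 2-fold lower.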

How the data were processed

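Per the labels, the libraries were made with the 10x Genomics 3′ chemistry, and the submitters' processing notes name Cell Ranger 6.0.0 and mm10. The deposited values are raw UMI counts per gene and barcode for 32285 genes, with 9072 and 9114 barcodes. Members were found by the rule given above, 5 of its 6 shaft and sheath keratins being used. UMIs were summed over members per library. CPM, exact Poisson intervals and log2 ratios with exact conditional binomial intervals were computed from the sums, at 95%. Doublets were kept. The Scrublet automatic threshold marked 3 and 1 cells and was not usable, so the highest 7% were removed as an alternative. Sites come from the longest annotated 3′ UTR of each gene in GENCODE vM21, for 20903 gene identifiers.

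Members, gene lists and comparisons were chosen with earlier results of these data known. Named genes were the rule genes, genes of the pathway, transcription factor, shaft, adhesion and signal lists reaching 50 CPM, the 12 highest and 12 lowest between libraries (at least 30 UMIs, intervals apart) and the 15 highest and 8 lowest against other keratin cells, of which 1 is not reported here. Other named genes (those of the replication, mitosis, stress and microRNA target lists, marker genes, and Lgr5, Axin2, Wnt5a, Bdnf, Ptn and Fbln1) fall outside that rule and were chosen after their values were seen. Alternatives were other cell filters, doublet removal, thinning, marker and keratin limits, 5 CPM added, no minimum level, centring and equal weight per cell. The sums were checked on simulated data. Analyses ran in Python 3.11.15 with scanpy 1.11.5, scipy 1.17.1, pandas 2.3.3, matplotlib 3.10.9 and numpy 2.4.6.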

Additional observations from a re-analysis of the deposited data

Results flagged for a closer look

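In 3 of 153 named genes, members and other keratin cells lay past 2-fold in opposite directions between the libraries, and these differences were not tested. Krt33a was at 265 and 0 CPM in control and induced members and at 1.59 and 38.6 CPM in other keratin cells, which are differences of -3.83 and 1.44 with 20 CPM added. S100a3 was at 349 and 28.5 CPM in members and 8.05 and 36.4 CPM in other keratin cells, which are -2.93 and 1.01. Psors1c2 was at 147 and 12.1 CPM in members and 4.22 and 32.5 CPM in other keratin cells, which are -2.38 and 1.12. At least 99.3% of the control UMIs of each in members came from 1 cell. Without members of at least 100 keratin UMIs per 10000, the member differences of S100a3 and Psors1c2 were 1.20 and 0.58. The other keratin cells include the shaft and sheath cells, 21 control and 32 induced, which held Krt33a at 148 and 4634 CPM and S100a3 at 556 and 3884 CPM.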

How the results depend on the processing

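No paired analysis was possible because each genotype is 1 library. The share of members was 0.705% in the control and 0.630% in the induced library with the rule applied at 5000 UMIs per cell (28 and 25 cells), and 0.683% in the induced library with at least 4 markers. Genes 2-fold higher in induced members numbered 97 with 5 CPM added and 126 with no minimum level, and centring gave 66 lower. Members without Shh, of which the induced library has 5, gave 245 higher and 515 lower. Against other keratin cells, 5 CPM added gave 88 higher. The cycling shares without thinning were 85.7% and 71.1%. The seed match difference from all genes, -0.17, ran from -0.21 to -0.14 with 1 setting changed, and was -0.23 for the 8-base match with each cell weighted equally. Of the 60 and 110 genes, 53 and 91 stayed past 2-fold with no keratin minimum and 48 and 94 with keratins under 100 per 10000, both chosen after seeing the data.

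Of 153 named genes, 74 changed sign under at least 1 alternative, 50 of them with members without Shh left aside, and 63 of the 74 were under 2-fold to begin with. The 11 past 2-fold gave these values of the opposite sign, with 20 CPM added. Doublet removal gave -0.30 for Sbsn. The rule at 5000 UMIs gave 0.15 for Cstdc5, 0.18 for Krt15 and 0.12 for Stfa3. Keratins under 100 gave 0.86 for Cstdc5, -0.021 for Flg, 0.25 for Krt87, 0.58 for Psors1c2, 1.20 for S100a3 and 0.37 for Stfa3. Members with Shh gave 0.16 for Krt87, 0.64 for Psors1c2 and 0.52 for S100a3. Members without Shh gave 2.70 for Cstdc5, -0.69 for Flg, -0.11 for Fzd1, -0.43 for Hspa1a, 0.12 for Krt79 and 3.12 for Stfa3. The cause was not tested, and the few cells limit each value.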

Other observations

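Bdnf, a neurotrophin gene, had 2 UMIs in 2 control members and 31 UMIs in 13 induced members, or 1.56 and 34.0 CPM, while other keratin cells had 17.7 and 22.8 CPM. Ptn, which encodes the growth factor pleiotrophin, stood at 850 CPM in 47 control members and 1817 CPM in 44 induced members, and at 336 and 174 CPM in other keratin cells. Fbln1, which encodes the matrix protein fibulin-1, stood at 322 CPM in 45 control members and 127 CPM in 35 induced members, and at 84.7 and 62.9 CPM in other keratin cells. These 3 genes were chosen after their values were seen.

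Dct, a pigment enzyme gene of melanocytes, had UMIs in 16 control and 29 induced members, at 20.3 and 66.9 CPM, with Pmel at 0 and 5.49 CPM. In the cells under the keratin limit, which include melanocytes, Dct stood at 569 and 3149 CPM and Pmel at 399 and 2706 CPM. No member reached 5 per 10000 of Dct or of Pmel.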
